A study of Mus musculus with 12 samples.

Results

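The genes described here are 32 members of the p53 pathway in mouse splenic B cells: Trp53 itself, its direct brakes and a set of genes known as p53 targets. They were picked by gene symbol from a list of names that was drawn up with earlier results of these data known, and all 32 were found among the 59762 gene identifiers of the deposited count tables. The study sequenced poly(A) RNA of B cells, taken from the spleen by negative selection with CD43 beads, to ask how loss of 2 RNA-binding proteins, hnRNP A1 and hnRNP A2B1, alters gene expression. Untreated cells were profiled from 3 wild-type (WT) and 3 double knockout (DKO) samples, in which both genes, Hnrnpa1 and Hnrnpa2b1, were deleted with Cre and loxP. Stimulated cells of the same genotypes, with 2 samples each, had been cultured for 48 h with anti-CD40 at 1 µg/mL and anti-IgM at 10 µg/mL. A pair of further WT libraries of splenic B cells carried titles of another form and are called the additional WT libraries. The labels name neither the driver of Cre nor the strain or ages. They also do not say that samples of a group came from separate mice. Each untreated group held libraries of both sexes and so at least 2 mice, while in the stimulated groups the spread behind a p-value may be technical. Untreated cells were taken without culture, so the stimulus and the 48 h of culture cannot be told apart.

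p53, encoded by Trp53, is a transcription factor that is held at low levels by the ubiquitin ligase Mdm2 and its partner Mdm4, and is stabilised when DNA damage, ribosomal stress or other insults release it from them. It is controlled mainly at the protein level, and its activity is commonly read from the RNA of its targets. Those targets halt the cell cycle (Cdkn1a), promote cell death (Bax, Bbc3, Pmaip1), aid DNA repair (Ddb2, Polk, Rrm2b), adjust metabolism (Sesn2, Tigar) and, through Mdm2, close a negative feedback loop. In B cells p53 is known as a guard against DNA breaks made during antigen receptor diversification, and its level is held down in germinal centre B cells by Bcl6.

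p53 binds DNA as a tetramer, at sites made of a pair of 10-base half-sites, so the members' promoters were searched for the p53 half-site consensus. The consensus is its own reverse complement, so each match covers both strands. Windows from 250 bases before to 50 bases after each start were taken from RefSeq on GRCm38.p6, an older build than the one used for counting. Windows were held for 25 of the 32 members, and 12 of these genes (48.0%) had at least 1 half-site, as 38.2% of their 34 windows did. Among all 32851 windows of the table, 2745 (8.4%) had one. A pair of half-sites separated by 0 to 13 bases was found in 24 windows of the table (0.0731%) and in 1 member, Cdkn1a. A match is a description of the letters and not a mapped binding site. The 250 bases before the start are shown for the 5 members that had a match and that differed between DKO and WT cells in at least 1 condition, with the half-sites in capitals. The windows stop at the start, so they hold no transcribed base of that transcript.
Cdkn1a (chr17:29090729-29090978, plus strand): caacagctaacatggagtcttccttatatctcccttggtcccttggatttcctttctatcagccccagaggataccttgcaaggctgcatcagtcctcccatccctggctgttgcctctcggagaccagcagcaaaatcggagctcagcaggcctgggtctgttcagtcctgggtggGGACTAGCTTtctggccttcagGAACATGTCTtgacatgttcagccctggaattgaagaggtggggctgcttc
Ccng1 (chr11:40755287-40755536, minus strand): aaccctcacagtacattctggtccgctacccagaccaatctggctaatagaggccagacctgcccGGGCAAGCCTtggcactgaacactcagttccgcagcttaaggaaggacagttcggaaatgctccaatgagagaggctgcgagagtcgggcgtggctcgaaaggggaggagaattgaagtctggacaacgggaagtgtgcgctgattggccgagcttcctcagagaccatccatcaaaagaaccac
Bax (chr7:45466899-45467148, minus strand): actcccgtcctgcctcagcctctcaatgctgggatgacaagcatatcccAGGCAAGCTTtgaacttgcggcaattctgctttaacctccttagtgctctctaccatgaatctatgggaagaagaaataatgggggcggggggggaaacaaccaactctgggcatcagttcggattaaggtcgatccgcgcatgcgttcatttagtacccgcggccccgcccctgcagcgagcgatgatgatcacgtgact
Rps27l (chr9:66946163-66946412, plus strand): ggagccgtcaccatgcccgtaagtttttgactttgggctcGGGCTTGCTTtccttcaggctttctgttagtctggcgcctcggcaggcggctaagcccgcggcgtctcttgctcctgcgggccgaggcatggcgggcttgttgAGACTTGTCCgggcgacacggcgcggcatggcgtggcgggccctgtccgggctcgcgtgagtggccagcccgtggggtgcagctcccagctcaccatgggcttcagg
Polk (chr13:96519188-96519437, minus strand): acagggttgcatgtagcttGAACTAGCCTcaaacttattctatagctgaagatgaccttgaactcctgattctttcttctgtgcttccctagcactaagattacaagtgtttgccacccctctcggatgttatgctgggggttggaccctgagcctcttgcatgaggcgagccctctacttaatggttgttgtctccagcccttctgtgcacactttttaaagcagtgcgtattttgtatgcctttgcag
Cdkn1a, Rps27l and Polk each had 2 windows, for different annotated starts, and only 1 of them, the one shown, held a half-site. With positions counted from the start of the window shown, the Cdkn1a half-sites began at -73 and -51. Those of Rps27l began at -210 and -107, too far apart to count as a pair. Single half-sites began at -185 in Ccng1, at -201 in Bax and at -231 in Polk.

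The 12 libraries held 15090953 to 21731893 counts each. RNA of the targeted genes was reduced in every DKO library, to 11.2 to 29.3% of the WT mean for Hnrnpa1 and 18.5 to 34.4% for Hnrnpa2b1 in untreated cells, and to 14.4 to 16.2% and 20.1 to 24.0% in stimulated cells. Summed over 6 B cell markers, levels were 2700 to 5510 CPM (the count relative to library size, scaled by TMM) in every library, against 1.08 to 4.13 CPM for 6 T cell markers. Monocyte and macrophage markers (6 genes) summed to 29.8 to 59.6 CPM in the numbered groups and to 175 to 223 CPM in the additional WT libraries. In the numbered groups Adgre1 and Lyz2 made up most of that sum. Adgre1 was at 15.8 to 21.2 CPM in untreated DKO and 30.2 to 45.7 CPM in untreated WT libraries, and Lyz2 at 12.7 to 30.2 and 6.64 to 24.7 CPM. The additional WT libraries had Adgre1 at 168 and 217 CPM, nearly all of their sum, and Lyz2 at 3.62 and 3.34 CPM. Csf1r reached at most 2.88 CPM and C1qa at most 0.763 CPM in any library. Neutrophil markers (5 genes) summed to 0 to 5.09 CPM and erythroid markers (6 genes) to 1.18 to 30.9 CPM. Plasma cell markers (4 genes, with Tnfrsf17 at most at 0.155 CPM) summed to 14.0 to 21.7 CPM in untreated DKO cells and 24.3 to 45.2 CPM in untreated WT cells, and to 49.2 to 63.2 CPM against 31.5 to 43.8 CPM after stimulation. The part of these cells in the differences below was not tested. Xist and Ddx3y showed that untreated WT library 2 and untreated DKO library 1 came from females and all other libraries from males. The labels number the stimulated WT samples 1 and 2, while the columns of the table are numbered 1 and 3, so the column numbered 3 entered only as a WT library, termed unnumbered here. In bulk RNA, fewer cells of a type and less RNA per cell cannot be told apart.

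Of the 32 members, 29 had enough counts to be tested in every comparison. Per length of exon in untreated WT cells (mean ± SD, n = 3, CPM per kb), the highest levels were those of Rps27l, a ribosomal protein S27-like protein, at 125 ± 9.72, and the death effector Bax at 59.3 ± 1.83. Trp53 stood at 49.7 ± 1.56 and Ccng1, cyclin G1, at 45.4 ± 0.949, and Trp53 and Ccng1 were closer to each other than Bax was to either. The sestrin Sesn2 followed at 35.5 ± 5.71 and Mdm4 at 23.1 ± 1.60. Mdm2 and the BH3-only protein gene Pmaip1 (NOXA) had the same mean, 15.2 ± 0.529 and 15.2 ± 1.59. Cdkn1a, which encodes the cyclin-dependent kinase inhibitor p21, was at 13.3 ± 1.49, within the spread of Fdxr at 12.7 ± 1.63. The death receptor gene Tnfrsf10b at 1.76 ± 0.0600, the kinase gene Plk2 at 0.747 ± 0.240, Zfp365 at 0.239 ± 0.0569 and the long noncoding RNA Lncpint at 0.105 ± 0.0318 were at the low end.

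**Figure D1:**
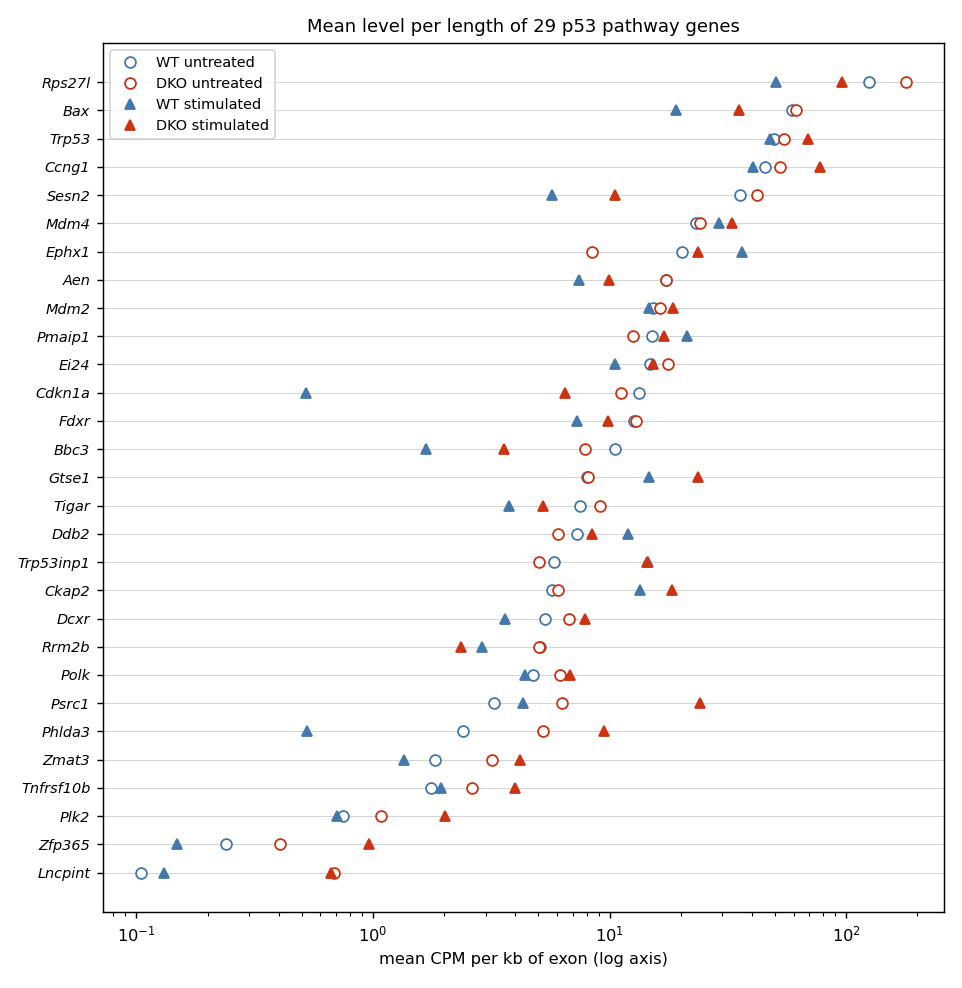
Mean level per length of exon (CPM per kb, log axis) of the 29 tested members in WT and DKO cells, untreated (open circles) and stimulated (triangles), sorted by untreated WT. The levels run from 125 for Rps27l to 0.105 for Lncpint in untreated WT cells, and Cdkn1a and Phlda3 show the widest gap between stimulated WT and stimulated DKO cells.

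In untreated cells, loss of hnRNP A1 and A2B1 went with a higher level of 7 of the 29 tested members (24.1%) and a lower level of 1 (edgeR quasi-likelihood test, Benjamini-Hochberg adjusted p under 0.05). Over all 13561 tested genes, 8.81% were called higher and 10.6% lower. Phlda3, Psrc1, Zmat3, Tnfrsf10b, Rps27l, Polk and Lncpint rose, by 1.29-fold (Polk) to 6.41-fold (Lncpint), and Ephx1 fell. Neither Trp53, Mdm2 nor Cdkn1a passed the test. The median log2 difference was 0.12 over the members and -0.01 over all tested genes, and 20 of the 29 members had a positive value. In 11 members all DKO libraries lay above all WT libraries and in 1 below, against 18.8% and 20.2% of all tested genes. These 7 calls depend on which WT libraries are used: with the additional WT libraries counted as untreated WT, none of the 7 was called, while Ephx1 was. The log2 difference was then 2.00 for Lncpint (adjusted p = 0.0743), 0.91 for Phlda3 (0.0856) and 0.46 for Rps27l (0.0753). It was near 0 for the other 4, at 0.18 for Psrc1 (0.81), 0.14 for Zmat3 (0.838), 0.09 for Tnfrsf10b (0.879) and -0.04 for Polk.

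Trp53 RNA was at 196, 208 and 199 CPM in the untreated WT libraries 1 to 3 and at 232, 218 and 213 CPM in the DKO libraries. All DKO values lay above all WT values, but the difference of 0.12 ± 0.07 (log2 DKO over WT ± SE) did not pass the test (edgeR adjusted p = 0.229). Mdm2 was at 80.3, 76.7 and 75.0 CPM in WT and 91.2, 77.7 and 80.9 CPM in DKO libraries, which overlapped (0.09 ± 0.08). Mdm4 likewise differed by only 0.05 ± 0.09. Lncpint, a p53-induced long noncoding RNA at chr6:31059500-31197423, minus strand (GRCm39), was at 1.01, 0.769 and 0.541 CPM in WT and 6.21, 2.93 and 6.00 CPM in DKO libraries. The groups did not overlap, and the log2 difference was 2.68 ± 0.38 (edgeR adjusted p = 0.00332). Lncpint is overlapped by Gm13835, annotated on the same strand, which had 1088 to 1624 counts in the untreated libraries. Counting by strand could not separate these genes, so the value of Lncpint is uncertain. It is also overlapped by 2210408F21Rik on the opposite strand, and no source names the strand setting of the counting.

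Among cell cycle and genome upkeep genes, 1 of 7 tested members rose. Psrc1, a microtubule-associated protein of the mitotic spindle at chr3:108291155-108295547, plus strand, was at 13.3, 8.82 and 10.5 CPM in WT and 23.5, 20.9 and 18.9 CPM in DKO libraries, without overlap (0.94 ± 0.16, edgeR adjusted p = 0.00701). Cdkn1a, at chr17:29309950-29319701, plus strand, was at 44.9, 53.4 and 43.7 CPM in WT and 49.5, 38.8 and 30.8 CPM in DKO libraries. These ranges overlapped, and the difference of -0.27 ± 0.16 did not pass the test. Ccng1 had 157 to 163 CPM in WT and 173 to 208 CPM in DKO libraries, without overlap, and a log2 difference of 0.20 ± 0.08 that did not pass (edgeR adjusted p = 0.119). Plk2 (0.52 ± 0.26) and Zfp365 (0.75 ± 0.34), a zinc finger gene with a role in genome stability, did not pass either. Gtse1 (-0.00 ± 0.18) and Ckap2 (0.06 ± 0.20), both tied to microtubules and the G2 and M phases, were close to 0.

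Of 9 tested cell death genes, 3 rose. Phlda3, which encodes a PH-domain protein that restrains Akt, lies at chr1:135693857-135696874, plus strand and was at 3.69, 3.37 and 4.13 CPM in WT and 9.77, 7.38 and 7.39 CPM in DKO libraries. Every DKO library was above every WT library (1.11 ± 0.19, edgeR adjusted p = 0.0061). Zmat3, an RNA-binding zinc finger protein, was at 20.7, 18.1 and 23.7 CPM in WT and 41.5, 30.6 and 37.3 CPM in DKO libraries, again without overlap (0.79 ± 0.14, edgeR adjusted p = 0.00732). Tnfrsf10b, the mouse TRAIL receptor, was at 9.80, 9.23 and 9.79 CPM in WT and 13.1, 15 and 14.8 CPM in DKO libraries, a separation of 0.56 ± 0.13 (edgeR adjusted p = 0.0169) that no longer passed without WT library 3 (adjusted p = 0.0655), DKO library 2 (0.0523) or DKO library 3 (0.0667). The other 6 did not pass. They were Bax (0.04 ± 0.09), the nuclease gene Aen (-0.01 ± 0.09), the BH3-only protein gene Bbc3 (PUMA, -0.44 ± 0.19), Pmaip1 (-0.28 ± 0.11), the stress protein gene Trp53inp1 (-0.22 ± 0.10) and Ei24, a protein of the endoplasmic reticulum (0.24 ± 0.09).

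Of 4 tested genes of DNA repair and nucleotide supply, 2 rose. Rps27l was at 105, 108 and 93.2 CPM in WT and 158, 146 and 135 CPM in DKO libraries, without overlap (0.50 ± 0.09, edgeR adjusted p = 0.00642). Polk, a translesion DNA polymerase, was at 23.3, 29.3 and 26.3 CPM in WT and 32.5, 34.2 and 36.5 CPM in DKO libraries. The groups did not overlap, but the difference of 0.37 ± 0.11 was close to the threshold (edgeR adjusted p = 0.0452) and was lost when any of 5 of the 6 libraries was left out (adjusted p 0.0505 to 0.147). Rrm2b, a subunit of ribonucleotide reductase, and Ddb2, which recognises UV damage, did not pass (-0.02 ± 0.14 and -0.29 ± 0.19). Rrm2b is overlapped by Gm3362 on the same strand, which had 1387 to 3679 counts. Ddb2 is overlapped by Acp2 on the opposite strand, with 153 to 223 counts, so both values are uncertain.

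Of 5 tested metabolic and redox genes, 1 fell. Ephx1, the microsomal epoxide hydrolase, was at 39.7, 36.8 and 42.3 CPM in WT and 14.0, 20.4 and 15 CPM in DKO libraries. The lowest WT library was well above the highest DKO library, and the log2 difference was -1.28 ± 0.14 (edgeR adjusted p = 0.00174). Sesn2 was at 104, 143 and 123 CPM in WT and 182, 124 and 133 CPM in DKO libraries, which overlapped (0.23 ± 0.16). Tigar, a fructose bisphosphatase (0.27 ± 0.12), Fdxr, the ferredoxin reductase of mitochondria (0.01 ± 0.11), and Dcxr, L-xylulose reductase (0.32 ± 0.21), did not pass.

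In stimulated cells, 12 of the 29 tested members were higher in DKO than in WT cells (41.4%) and 0 were lower by the edgeR test, against 5.09% called higher and 6.17% called lower among all 14430 tested genes. The 12 were Cdkn1a, Phlda3, Psrc1, Zfp365, Zmat3, Plk2, Lncpint, Ccng1, Bax, Sesn2, Rps27l and Tnfrsf10b, and they ranged from 1.82-fold (Bax) to 17.6-fold (Phlda3). At an unadjusted p under 0.05, 21 members were higher and 2 lower, but the share of all tested genes was not computed there. DESeq2 called 14 members higher and 1, Ephx1, lower. Over all genes, the 5 alternatives that kept every library, DESeq2 among them, called 800 to 1921 higher and 919 to 1508 lower. The median log2 difference was 0.67 over the members and -0.03 over all tested genes. In 23 members both DKO libraries lay above both WT libraries and in 4 both lay below, against 29.9% and 31.5% of all tested genes. DKO library 1 was the higher of the DKO pair in 9 of the 12 genes, the exceptions being Ccng1, Lncpint and Zmat3, and it had the lowest TMM factor of the 10 libraries (0.896). The count of 12 fell without WT library 1 and grew without DKO library 2. Counts over all tested genes moved the same way, so these shifts are not shown to be particular to the members. Each such fit leaves 1 library in a group, which is assumed to vary like the others.

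**Figure D2:**
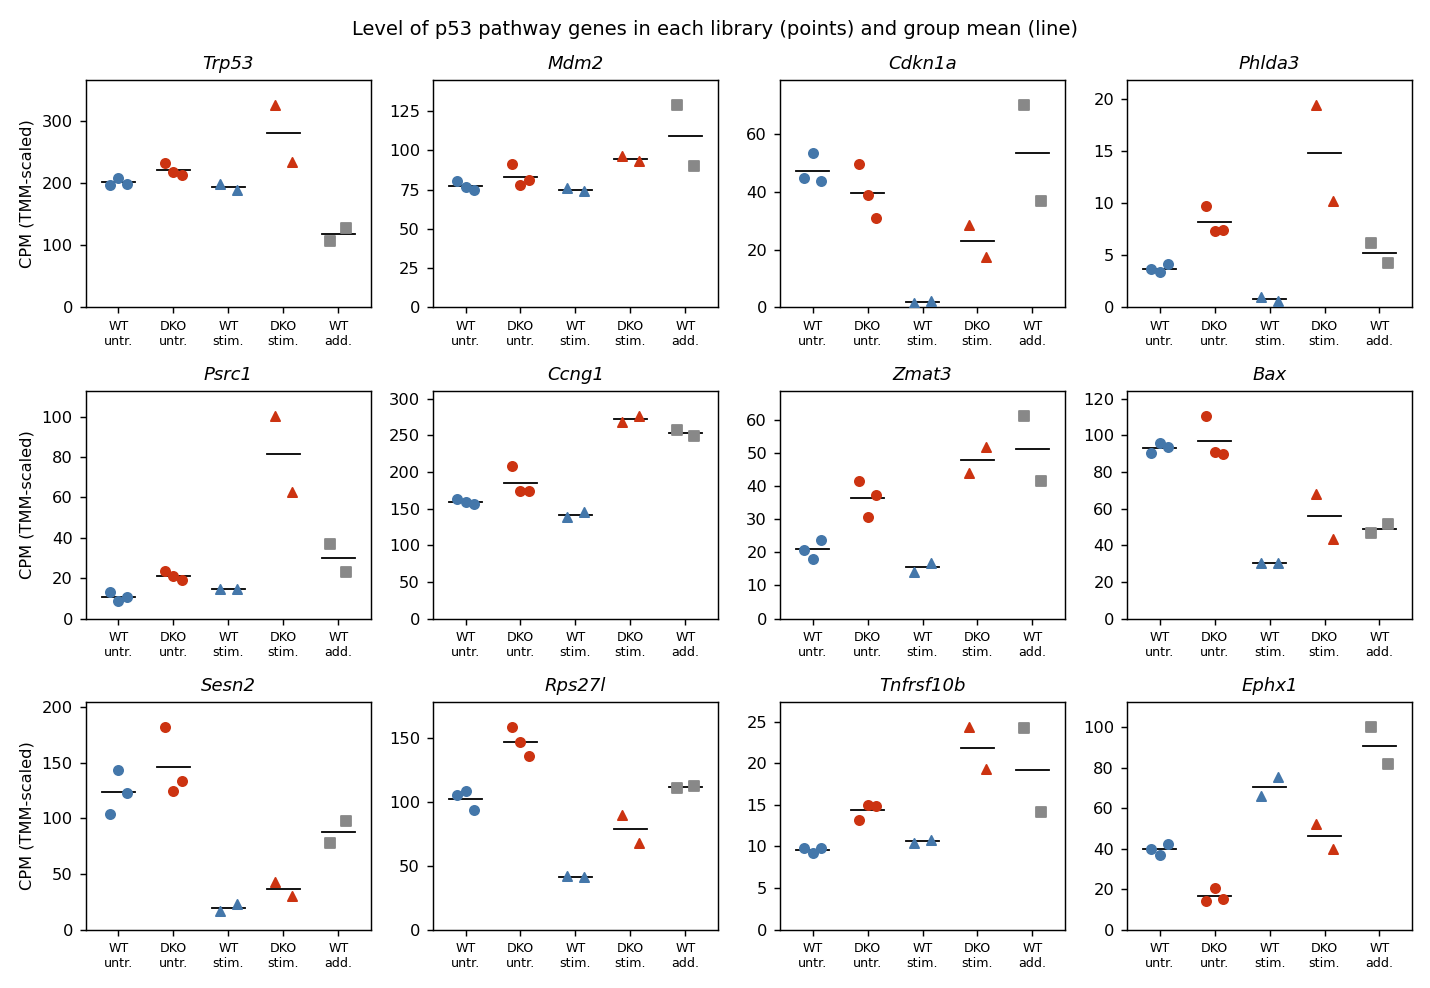
Level in every library (points, CPM scaled by TMM, axes from 0) with the group mean (line) for 12 members in untreated and stimulated WT and DKO cells and the additional WT libraries. Cdkn1a was at 1.45 and 2.27 CPM in stimulated WT against 28.6 and 17.6 CPM in stimulated DKO cells, while Trp53 and Mdm2 varied far less between groups.

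The cell cycle genes had the highest median of the roles, 1.5 on the log2 scale, and 5 of 7 tested members rose. Cdkn1a was at 1.45 CPM in WT library 1 and 2.27 CPM in the unnumbered WT library, and at 28.6 and 17.6 CPM in DKO libraries 1 and 2. The lower DKO library was several times above the higher WT library, and the log2 difference was 3.62 ± 0.32, or 12.3-fold (edgeR adjusted p = 0.00115). Per length, Cdkn1a averaged 0.522 ± 0.163 CPM per kb in WT and 6.50 ± 2.2 CPM per kb in DKO cells (SD, n = 2 each). This call held under all 9 alternatives run for it, with log2 values of 3.25 to 3.97. 1700023B13Rik, annotated on the opposite strand, had at most 1 count in a stimulated library.

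Psrc1 was at 14.5 and 14.5 CPM in WT and 100.3 and 62.7 CPM in DKO libraries (2.47 ± 0.23, edgeR adjusted p = 0.00115). Zfp365 was at 0.723 and 0.829 CPM in WT and 5.45 and 4.54 CPM in DKO libraries (2.66 ± 0.37, adjusted p = 0.00532). Both genes were several times higher in each DKO library than in either WT library. Plk2, a polo-like kinase, was at 2.89 and 3.43 CPM in WT and 9.79 and 8.29 CPM in DKO libraries (1.50 ± 0.27, edgeR adjusted p = 0.0122). Ccng1 was at 139 and 145 CPM in WT and 269 and 276 CPM in DKO libraries, without overlap. Its log2 difference was 0.92 ± 0.17 (edgeR adjusted p = 0.014), and the call was lost without either WT library (adjusted p = 0.167 and 0.171). Gtse1 (0.67 ± 0.19, adjusted p = 0.0533) and Ckap2 (0.43 ± 0.16, adjusted p = 0.108) did not pass.

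Of 9 tested cell death genes, 4 rose. Phlda3 was at 1.03 and 0.608 CPM in WT and 19.4 and 10.3 CPM in DKO libraries. Both DKO libraries were many times above both WT libraries, and the log2 difference of 4.14 ± 0.41, or 17.6-fold, was the largest among the members (edgeR adjusted p = 0.00137). Zmat3 was at 14.2 and 16.9 CPM in WT and 43.9 and 51.9 CPM in DKO libraries (1.61 ± 0.19, edgeR adjusted p = 0.00305). Tnfrsf10b was at 10.4 and 10.8 CPM in WT and 24.3 and 19.3 CPM in DKO libraries (1.02 ± 0.20, edgeR adjusted p = 0.016). Bax, which permeabilises the outer mitochondrial membrane, was at 30.1 and 30.4 CPM in WT and 67.8 and 43.7 CPM in DKO libraries (0.86 ± 0.21, edgeR adjusted p = 0.0358). In each of these genes both DKO libraries were above both WT libraries. Without WT library 1 or the unnumbered WT library, adjusted p was 0.136 and 0.168 for Bax and 0.0697 and 0.065 for Tnfrsf10b. Bbc3 was at 2.99 and 4.14 CPM in WT and 9.69 and 5.53 CPM in DKO libraries, and its difference of 1.08 ± 0.34 did not pass (edgeR adjusted p = 0.0682). Ei24 (0.53 ± 0.16), Aen (0.40 ± 0.19), Trp53inp1 (-0.02 ± 0.24) and Pmaip1 (-0.34 ± 0.17) did not pass either, so not all death genes had the same sign.

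Trp53 was at 198 and 189 CPM in stimulated WT and 325 and 234 CPM in DKO libraries, with both DKO values above both WT values and a log2 difference of 0.52 ± 0.20 that did not pass (edgeR adjusted p = 0.12). Mdm2 was at 75.9 and 73.9 CPM in WT and 96.4 and 92.9 CPM in DKO libraries, also without overlap, and did not pass (0.32 ± 0.16, adjusted p = 0.214). Mdm4 overlapped between the groups (0.16 ± 0.25). Lncpint was at 0.826 and 1.10 CPM in WT and 3.28 and 6.57 CPM in DKO libraries (2.33 ± 0.45, edgeR adjusted p = 0.0168), while Gm13835, which overlaps it, had 843 to 1222 counts.

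Rps27l was at 41.7 and 41.2 CPM in WT and 89.3 and 67.4 CPM in DKO libraries (0.90 ± 0.18, edgeR adjusted p = 0.0186). Sesn2, which restrains mTORC1, was at 16.7 and 22.9 CPM in WT and 43.2 and 30.2 CPM in DKO libraries (0.87 ± 0.23, edgeR adjusted p = 0.0409). Neither gene overlapped between groups, but Rps27l lost its call without either WT library (adjusted p = 0.117 and 0.166) and Sesn2 without WT library 1 (0.279). Polk (0.61 ± 0.21), Dcxr (1.10 ± 0.31), Tigar (0.47 ± 0.20) and Fdxr (0.42 ± 0.18) had positive values that did not pass. Ephx1 was at 65.9 and 75.2 CPM in WT and 52.0 and 40.0 CPM in DKO libraries, and its difference of -0.63 ± 0.18 missed the threshold (edgeR adjusted p = 0.0541). Ddb2 (-0.52 ± 0.17) and Rrm2b (-0.30 ± 0.21) also had negative values that did not pass.

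**Figure D3:**
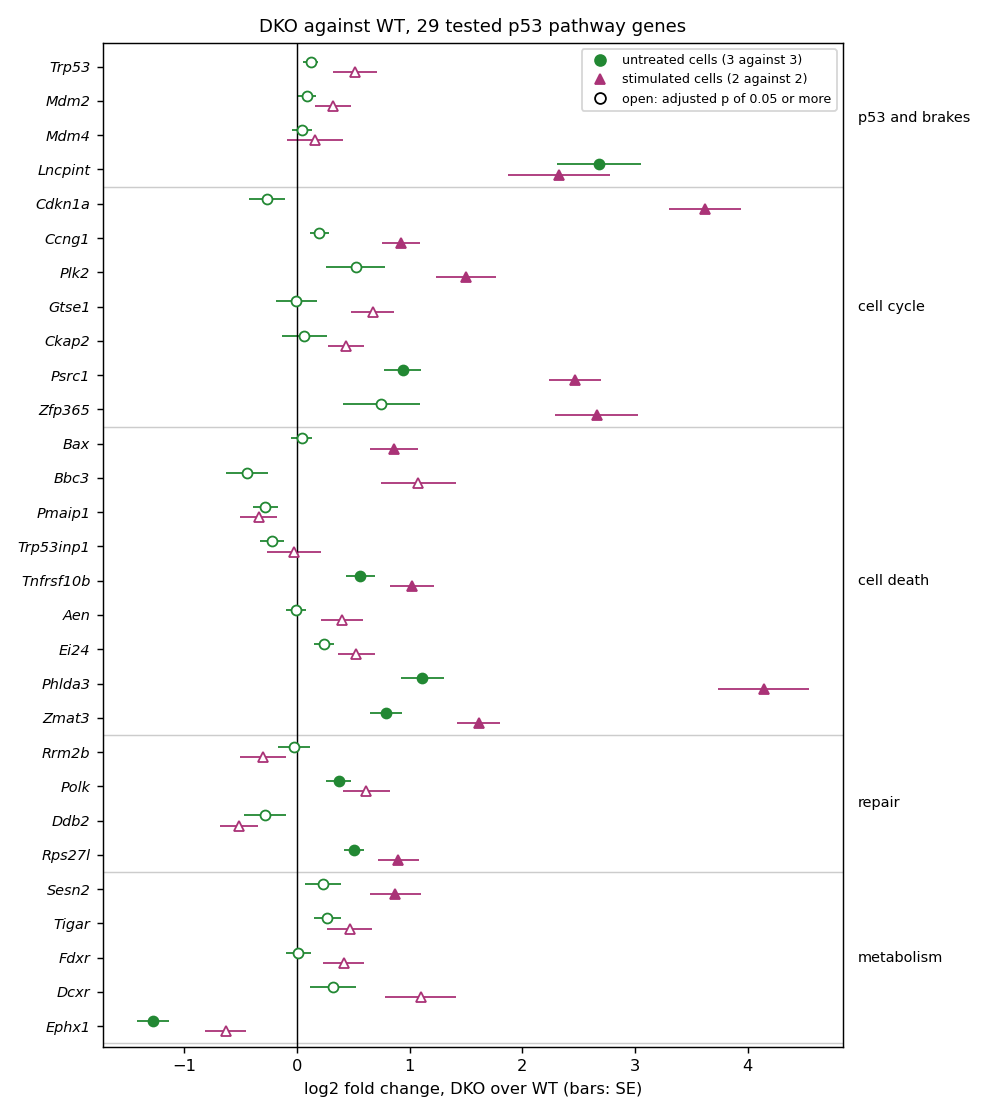
Log2 DKO over WT with SE bars for the 29 tested members, grouped by role, in untreated (circles) and stimulated (triangles) cells; open symbols did not pass the test. Of the stimulated values, 24 lie above 0, with Phlda3 at 4.14 and Cdkn1a at 3.62, and the lowest untreated value is that of Ephx1 at -1.28.

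The untreated and stimulated comparisons share no libraries. Lncpint, Phlda3, Psrc1, Rps27l, Tnfrsf10b and Zmat3 were called higher in both, which is 85.7% of the 7 called in untreated and 6 of the 12 called in stimulated cells. The matching overlap over all tested genes was not computed, so this share is not shown to be particular to the members. Whether the genotype difference itself differed between conditions was tested as an interaction in 1 fit of the 10 libraries of the 4 numbered groups. Of 15006 tested genes, 20 (0.133%) had a higher DKO over WT difference in stimulated than in untreated cells and 1 (0.00666%) a lower one, and 2 of the 29 members were among the former. Cdkn1a differed by 3.93 ± 0.38 on the log2 scale (edgeR adjusted p = 0.0025), which held under all 17 alternatives run for it. Phlda3 differed by 3.07 ± 0.46 (edgeR adjusted p = 0.0235), and 7 of the 10 single libraries, when left out, ended the call. These were WT untreated 1 (adjusted p = 0.0596) and 3 (0.0756), DKO untreated 2 (0.0773) and 3 (0.0649), WT stimulated 1 (0.0731), the unnumbered WT (0.178) and DKO stimulated 1 (0.0641). Without DKO stimulated library 2, more members were called higher, as were more of all tested genes. Psrc1 (1.57 ± 0.30, adjusted p = 0.0597) and Ccng1 (0.76 ± 0.15, adjusted p = 0.0843) did not pass and are past the threshold by DESeq2. Trp53 (0.43 ± 0.20) and Mdm2 (0.26 ± 0.15) did not pass. The median interaction was 0.44 over the members and 0.05 over all tested genes, and 25 of 29 were positive. By edgeR 0 members had a lower difference. At an unadjusted p under 0.05, 16 members had a higher and 0 a lower one, but the share of all tested genes was not computed there. DESeq2 called 5 members higher and 0 lower, where over all genes it called 122 higher and 52 lower.

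Many members differed between stimulated and untreated cells, which also differ in the 48 h of culture and in the table that holds them. A rise or fall on stimulation stands here for that whole contrast. In WT cells 12 of the 29 (41.4%) fell and 6 (20.7%) rose, where 22.8% of all tested genes fell and 17.8% rose. In DKO cells 9 (31.0%) fell and 11 (37.9%) rose, where 16.8% of all tested genes fell and 16.2% rose. The WT and DKO comparisons share no libraries with each other, but each shares its groups with the genotype comparisons above, so the values stand side by side and are no independent support for them. In both genotypes Aen, Bax, Bbc3, Cdkn1a, Fdxr, Rps27l, Rrm2b, Sesn2 and Tigar fell, which is 9 of the 12 falls in WT and all 9 in DKO cells. Ckap2, Ephx1, Gtse1, Pmaip1 and Trp53inp1 rose in both, 5 of the 6 rises in WT and of the 11 in DKO cells. How far such calls overlap over all tested genes was not computed, so these shares are not shown to be particular to the members. All stimulated libraries lay above all untreated ones in 9 members and below in 17 in WT cells (30.9% and 35.9% of all tested genes), and in 14 and 9 in DKO cells (26.6% and 27.2%).

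Cdkn1a had the largest fall of the members in WT cells, -4.70 ± 0.31 on the log2 scale (edgeR adjusted p = 4.12e-07). In DKO cells it fell by 0.76 ± 0.24 (adjusted p = 0.0253), a call that was lost without DKO untreated library 1 (0.0871), DKO untreated library 2 (0.0518) or DKO stimulated library 2 (0.186). Phlda3 fell in WT cells (-2.19 ± 0.37) and rose in DKO cells (0.88 ± 0.27, edgeR adjusted p = 0.0254), the latter call being lost without DKO untreated library 2 (0.0755), DKO untreated library 3 (0.0767) or DKO stimulated library 1 (0.402, at a log2 value of 0.32). No other member was called in opposite directions.

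Among the other death genes, Bbc3 changed by -2.68 ± 0.30 in WT and -1.12 ± 0.27 in DKO cells, Bax by -1.65 ± 0.18 and -0.79 ± 0.17, and Aen by -1.24 ± 0.15 and -0.79 ± 0.15. All of these passed the edgeR test, though Bbc3 in DKO cells did not without DKO stimulated library 2 (adjusted p = 0.0681). Pmaip1 rose by 0.46 ± 0.12 and 0.43 ± 0.13 and Trp53inp1 by 1.29 ± 0.17 and 1.52 ± 0.17. For Pmaip1 the call was lost in WT cells without either stimulated library (adjusted p = 0.0598 and 0.0637) and in DKO cells without DKO untreated library 3 (0.0767) or DKO stimulated library 2 (0.0854). Tnfrsf10b did not pass in WT cells (0.12 ± 0.16) and rose in DKO cells (0.62 ± 0.15), though not without DKO stimulated library 1 (adjusted p = 0.0727). Ei24 fell in WT cells (-0.52 ± 0.12) but not without the unnumbered library (0.0611), and did not pass in DKO cells. Zmat3 fell in WT cells (-0.45 ± 0.16, edgeR adjusted p = 0.0444) with a call that was lost without any of 5 libraries (0.0592 to 0.28) and by DESeq2 (0.0585), and it did not pass in DKO cells (0.40 ± 0.16, adjusted p = 0.0679).

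Of the cell cycle genes, Ckap2 rose by 1.20 ± 0.19 in WT and 1.60 ± 0.19 in DKO cells, and Gtse1 by 0.84 ± 0.20 and 1.56 ± 0.20. Psrc1, in contrast, did not pass in WT cells (0.39 ± 0.22) and rose by 1.96 ± 0.20 in DKO cells (edgeR adjusted p = 1.69e-05). Ccng1 (0.56 ± 0.11), Plk2 (0.91 ± 0.26) and Zfp365 (1.25 ± 0.32) also passed in DKO cells, while in WT cells their values of -0.19 ± 0.11, -0.11 ± 0.28 and -0.70 ± 0.39 did not. The interaction was not past the threshold for any of these 4 genes, so a difference between genotypes in the response is not shown for them by edgeR. Plk2 lost its call in DKO cells without DKO untreated library 3 (adjusted p = 0.0536) or DKO stimulated library 1 (0.0921), and Zfp365 without the latter (0.0557).

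Sesn2 changed by -2.67 ± 0.24 in WT and -1.98 ± 0.23 in DKO cells, the largest fall among the metabolic genes in each genotype. Rps27l fell by 1.33 ± 0.14 and 0.89 ± 0.14, Tigar by 1.02 ± 0.16 and 0.79 ± 0.16, and Rrm2b by 0.84 ± 0.18 and 1.09 ± 0.18. Fdxr fell by 0.83 ± 0.14 in WT cells, while its fall of 0.39 ± 0.14 in DKO cells lay at the threshold (edgeR adjusted p = 0.0473) and was lost without any of 7 single libraries (0.0512 to 0.158) and by DESeq2 (0.0618). Ephx1 rose by 0.81 ± 0.16 and 1.49 ± 0.17. Ddb2 rose in WT cells (0.69 ± 0.18), but not without either stimulated library (adjusted p = 0.0559 and 0.056), and did not pass in DKO cells. Trp53 (-0.08 ± 0.14 and 0.35 ± 0.14), Mdm2 (-0.07 ± 0.11 and 0.19 ± 0.11), Polk (-0.13 ± 0.16 and 0.14 ± 0.15) and Lncpint (0.29 ± 0.49 and -0.04 ± 0.37) did not pass in WT or DKO cells, and neither did Mdm4 and Dcxr. Lncpint alone among the members had another exonic length in the stimulated table, 8616 bases against 7378 in the untreated one. Its stimulation and interaction values and its level per kb in stimulated cells are uncertain for that reason too.

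**Figure D4:**
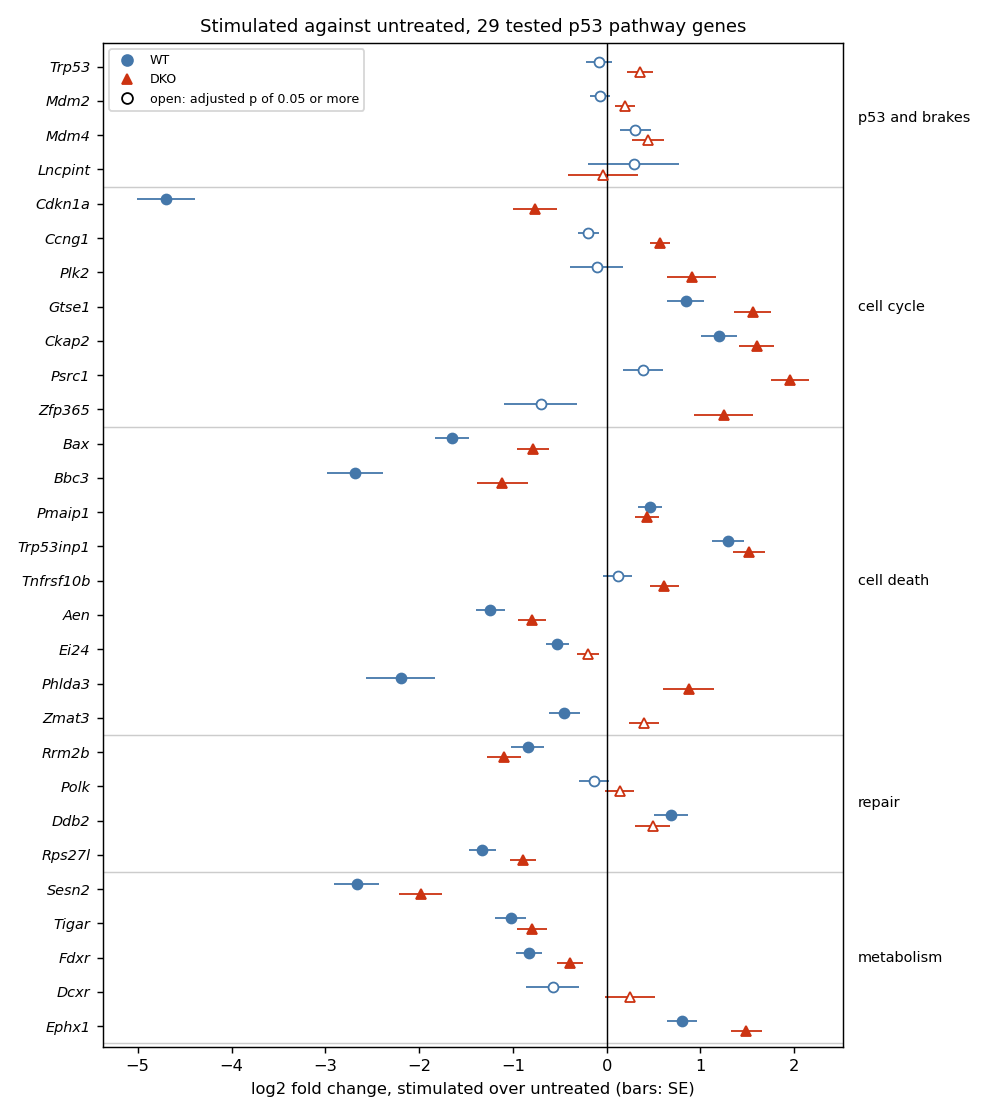
Log2 stimulated over untreated with SE bars for the 29 tested members, grouped by role, in WT (circles) and DKO (triangles) cells; open symbols did not pass the test. Cdkn1a lies at -4.70 in WT and -0.76 in DKO cells, Phlda3 at -2.19 and 0.88, and Sesn2 is low in both genotypes.

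Genes that act on p53 were looked at through a separate list of 30, among them the damage kinases and modifiers of Mdm2. In untreated cells 6 of 27 tested regulators rose and 1 fell in DKO cells, where 8.81% of all tested genes rose and 10.6% fell. The median log2 difference was 0.05 over the regulators and -0.01 over all tested genes. Usp7, which removes ubiquitin from Mdm2 and p53, differed by 0.39 ± 0.07 (edgeR adjusted p = 0.00628) and Rpl11, a ribosomal protein that can bind Mdm2, by 0.41 ± 0.07 (0.0065). The checkpoint kinase gene Chek1 differed by 0.64 ± 0.16 (0.0255) and Hexim1, an inhibitor of transcription elongation, by -0.46 ± 0.13 (0.0374). Chek1 did not pass without WT library 3 (0.096), DKO library 2 (0.0768) or DKO library 3 (0.0884), and Hexim1 without any of 4 libraries: WT 1 (0.089), WT 3 (0.12), DKO 1 (0.0629) or DKO 3 (0.0933). With the additional libraries taken as WT none of the 4 passed, and the log2 differences were 0.46 for Usp7 (0.069), 0.13 for Rpl11 (0.674), 0.12 for Chek1 (0.833) and -0.45 for Hexim1 (0.116). Rpl11 also did not pass in 1 fit of all groups (0.0575). In stimulated cells 0 of 26 tested regulators rose or fell by edgeR, where 5.09% of all tested genes rose and 6.17% fell. Both at an unadjusted p under 0.05 and by DESeq2, 2 regulators were higher and 1 lower. No matching share of all tested genes stands beside these counts, so they are not shown to be particular to the regulators. The median was -0.03 over the regulators and over all tested genes.

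A list of 35 further known p53 targets was counted in the same way, with no test of its difference from the 32 members. In untreated cells 2 of 34 tested genes rose and 7 fell, where 8.81% and 10.6% of all tested genes did, with a median log2 difference of -0.25. The 4 with the smallest p were lower in DKO cells, namely Trp53i11 (-0.82 ± 0.08), Cyfip2 (-0.57 ± 0.10), the metalloreductase gene Steap3 (-1.68 ± 0.30) and Sfn, 14-3-3 sigma (-0.70 ± 0.14). Sfn did not pass without WT library 3 (edgeR adjusted p = 0.0548). With the additional libraries taken as WT, Cyfip2 (-0.52, adjusted p = 0.0706), Steap3 (-1.14, 0.31) and Sfn (-0.62, 0.0873) did not pass. In stimulated cells 3 of 31 rose and 5 fell, where 5.09% and 6.17% of all tested genes did, with a median of -0.09. The thiamine transporter gene Slc19a2 (1.37 ± 0.19), the noncoding RNA Pvt1 (1.25 ± 0.19) and Pidd1, a p53-induced death domain protein (1.13 ± 0.18), were higher, and Sesn1, a sestrin like Sesn2, was lower (-0.83 ± 0.18). Pidd1 did not pass without the unnumbered WT library (edgeR adjusted p = 0.0588), nor Sesn1 without WT library 1 (0.0553) or the unnumbered one (0.335).

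Because Gtse1, Ckap2 and Psrc1 also serve mitosis, 20 mitotic genes were followed beside them. In untreated DKO cells 5 of the 20 fell and 0 rose by edgeR, where 10.6% of all tested genes fell and 8.81% rose. At an unadjusted p under 0.05, 8 were lower and 0 higher, and by DESeq2 6 were lower and 0 higher. These counts have no matching share of all tested genes beside them, so they are not shown to be particular to mitotic genes. All 20 had negative values (median -0.64, against -0.01 over all tested genes). Plk1 (-1.41 ± 0.32), Ccnb1 (-1.09 ± 0.25), Cdc20 (-0.90 ± 0.23) and Ube2c (-1.20 ± 0.32) had the smallest p. None of these 4 calls held without WT library 3 (edgeR adjusted p 0.0622 to 0.0875) or DKO library 3 (0.0612 to 0.0946), and all but that of Plk1 were lost without WT library 1 (0.0508 to 0.079) or DKO library 1 (0.0514 to 0.0741). With the additional libraries taken as WT, none of the 4 passed (0.103 to 0.259). Psrc1 was thus called higher in the same libraries in which 5 mitotic genes were called lower. In stimulated DKO against WT cells 0 of the 20 rose or fell by edgeR, where 5.09% of all tested genes rose and 6.17% fell. At an unadjusted p under 0.05 and by DESeq2, 0 were higher and 1 lower, again with no matching share of all tested genes. The median was -0.10, against -0.03 over all tested genes. The summed level of the 20 genes was 5435 to 5444 CPM in stimulated WT and 4365 to 5487 CPM in stimulated DKO libraries. In untreated cells it was 1054 to 2118 CPM and 731 to 1338 CPM. All 20 rose on stimulation in both genotypes, where 17.8% of all tested genes rose in WT and 16.2% in DKO cells.

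Of the 32 members, 3 had too few counts for the tests. Eda2r, a receptor of the TNF receptor family, had 0 to 1 counts in every untreated library, 0 in both stimulated WT libraries, which allows up to 0.156 and 0.171 CPM, and 7 and 5 counts in the stimulated DKO libraries 1 and 2. Ddit4l, an inhibitor of mTOR signalling, had 0 and 1 counts in stimulated WT and 11 and 4 in stimulated DKO libraries, after 1 to 4 counts in untreated ones. Perp, a membrane protein, had 0 and 4 counts in stimulated WT and 8 and 5 in stimulated DKO libraries. These raw counts are close to the floor of 3 counts and carry no test.

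The additional WT libraries differed from the untreated WT libraries in many members. Of the 29 tested, both additional libraries lay above all 3 untreated WT libraries in 17 and below them in 7. How many of all tested genes did so was not computed. Neither these counts nor those below are thus shown to be particular to the members. Zmat3 was at 61.1 and 41.4 CPM in them and Psrc1 at 37.1 and 22.9 CPM, in each case with both libraries above or within the untreated DKO values. Phlda3, at 6.21 and 4.31 CPM, lay between the untreated WT and DKO libraries. Cdkn1a was at 70.1 and 36.7 CPM and Mdm2 at 129 and 90.0 CPM, and Trp53 at 108 and 128 CPM was below every other library. All 7 members called higher in untreated DKO cells were higher in both additional WT libraries than in any untreated WT library. With these libraries counted as untreated WT, the rises of Pmaip1 and Trp53inp1 on stimulation of WT cells turned to -0.12 and -0.49 on the log2 scale. What sets these libraries apart cannot be told from the labels. Of the monocyte and macrophage markers, Adgre1 was higher and Lyz2 lower in them than in every other library, as given above.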

How the data were processed

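Per the labels, 12 libraries were made from poly(A) RNA of splenic B cells. The authors deposited raw counts per Ensembl gene in 3 tables (untreated, stimulated and additional WT cells), which are the values used. Per the submitters' processing notes, the authors used FastQC 0.10.1, cutadapt 1.9.1, HISAT2 2.2.1 and HTSeq 0.6.1 with GRCm39. Strand setting and annotation release: not given in the sources used here. Deposited FPKM values were not used. The members and lists were chosen with earlier results of these data known.

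Differences were computed in R 4.3.3 with edgeR 4.0.16, by its two-sided quasi-likelihood test after TMM scaling. Genes were kept by filterByExpr (min.count 10, min.total.count 15), p-values were adjusted over all of them by Benjamini and Hochberg, and calls were made at 0.05. Genotypes were compared separately within the 6 untreated and the 4 stimulated libraries. Interaction and stimulation effects came from 1 fit of 10 libraries with 1 mean per group. SE is the absolute log2 change over the square root of F. CPM values were scaled by TMM over all 12 libraries, and those per kb were divided by the exonic length of the untreated table. The fits were tested on simulated data. Stimulated and untreated cells are in separate tables, so table and stimulation cannot be told apart.

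All members are named, with values per library for those called between genotypes and for Trp53, Cdkn1a and Mdm2. Of each other list, up to 4 genes with the smallest p per genotype comparison are named. The alternatives tried were DESeq2 1.42.0, RLE scaling, a stricter filter (1 CPM throughout a group) or none, omission of each library, 1 fit for all groups, a replicate block, for untreated cells a sex term and the additional libraries as WT, and, chosen after seeing the data, a sex term for the joint fit and the additional libraries as WT there. Promoter windows came from RefSeq on GRCm38.p6.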

Additional observations from a re-analysis of the deposited data

Results flagged for a closer look

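The difference between DKO and WT cells depended on stimulation, by the interaction test of edgeR, for 2 members. For Cdkn1a the log2 DKO over WT difference was -0.27 ± 0.16 in untreated and 3.62 ± 0.32 in stimulated cells, and the interaction was 3.93 ± 0.38 (adjusted p = 0.0025). In raw terms, Cdkn1a went from 43.7 to 53.4 CPM in untreated WT libraries to 1.45 and 2.27 CPM in stimulated ones, and from 30.8 to 49.5 CPM to 28.6 and 17.6 CPM in DKO libraries. For Phlda3 the difference was 1.11 ± 0.19 in untreated and 4.14 ± 0.41 in stimulated cells, and the interaction was 3.07 ± 0.46 (adjusted p = 0.0235). The Phlda3 interaction rests on few counts in stimulated WT cells, at 1.03 and 0.608 CPM, and was lost when any of 7 of the 10 libraries was left out.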

How the results depend on the processing

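Each value of a named gene was recomputed under every alternative run for it. Over 146 such values and 2048 alternatives, 1788 kept their direction and side of the threshold, 137 lost a call, 77 gained one and 46 turned sign. In stimulated cells Cdkn1a, Phlda3, Psrc1, Plk2, Zfp365, Zmat3 and Lncpint were called under all 9 alternatives, and Ephx1 was called lower in untreated cells under all 14. For the other values below the cause was not tested.

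Leaving out 1 library gave these ranges. In untreated cells 364 to 1198 genes were called higher and 559 to 1581 lower, and 1 to 2 members lower. In stimulated cells 243 to 2997 genes were called higher and 333 to 2980 lower, and 7 to 22 members higher and 0 to 4 lower. For the interaction 1 to 677 genes were called higher, 0 to 567 lower and 1 to 10 members higher. For stimulation of WT cells 1568 to 3102 genes were called higher and 1989 to 3941 lower. No count for stimulation of DKO cells moved by over 1.5 times.

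In stimulated cells 1 member was called lower by DESeq2, without the filter, with the stricter filter and in 1 fit of all groups. Without the filter 1340 genes were called higher and 1507 lower, and in 1 fit of all groups 1921 and 1508, with 20 members higher. The members gained in that fit were Trp53, Mdm2, Bbc3, Ei24, Gtse1, Polk, Dcxr and Fdxr. That fit called 795 genes higher in untreated cells. For the interaction, RLE scaling called 3 genes lower, DESeq2 122 higher and 52 lower with 5 members higher, and no filter 354 higher and 137 lower with 9 members higher.

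With a sex term, 1992 genes were called higher and 2400 lower in untreated cells, with 4 members lower, and 67 higher and 14 lower for the interaction, with 4 members higher. With the additional libraries as WT, 89 genes were called higher and 230 lower in untreated cells, with 0 members higher. For the interaction the counts were then 2 and 0 with 1 member, and for stimulation of WT cells 1068 and 1369 with 2 members higher and 7 lower.

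Deviations of same-numbered untreated libraries from their group means correlated at -0.353, -0.351 and 0.139. The highest correlation, 0.44, was that of WT library 2 with DKO library 1, the libraries from females. Because deviations cancel within a group, these values cannot decide whether the numbers pair the samples. With the replicate block, 327 genes were called higher and 459 lower in untreated cells. For the interaction the counts were 1 and 0 with 1 member higher, and for stimulation of WT cells 1194 and 1668 with 2 members higher. Untreated DKO library 1 came from a female and stimulated DKO library 1 from a male. The number 1 thus does not mark 1 DKO mouse across conditions, which limits the block in the joint fit. No paired analysis was possible for stimulated DKO against WT cells because the table's columns of these groups share only 1 number (a WT column is numbered 3, where the labels have 2).

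Signs that turned belonged to values near 0 or to the additional libraries. With 1 library left out, untreated DKO over WT ran from -0.01 to 0.11 for Mdm4, -0.19 to 0.17 for Gtse1, -0.07 to 0.08 for Aen, -0.14 to 0.20 for Ckap2, -0.15 to 0.11 for Rrm2b, -0.09 to 0.08 for Fdxr and -0.05 to 0.09 for Bax. In stimulated cells it ran from -0.33 to 0.26 for Trp53inp1 and -0.23 to 0.49 for Mdm4. Stimulation of WT cells ran from -0.32 to 0.12 for Plk2 and -0.36 to 0.08 for Polk, that of DKO cells from -0.59 to 0.37 for Lncpint, and its interaction from -0.88 to 0.08. Gtse1 in untreated cells was 0.02 with the block or a sex term and 0.01 in 1 fit, where Aen was 0.01 and Trp53inp1 in stimulated cells 0.02. A sex term gave 0.04 for Plk2 in WT and 0.08 for Lncpint in DKO cells on stimulation. With the additional libraries as WT, untreated DKO over WT was -0.12 for Mdm2, -0.56 for Mdm4, -0.10 for Ccng1, 0.33 for Aen, -0.19 for Ckap2, 0.16 for Gtse1 and -0.04 for Polk. Stimulation of WT cells was then 0.20 for Trp53, -0.12 for Pmaip1, -0.49 for Trp53inp1, -0.34 for Tnfrsf10b, -0.35 for Psrc1 and -0.37 for Lncpint, whose interaction was 0.33. Depth limits Lncpint, Zfp365, Phlda3 and Plk2, at a few CPM or less in WT cells.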
